A study of Mus musculus with 1115 samples.

Results

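Cluster 2 excitatory neurons made up 13.9% of 1115 single cells from the cerebral cortex of mouse embryos, 70 cells of 1 sort day, 80 of another and 5 of other days. They are the cells that the authors' cell table placed in cluster 2 of their clustering at resolution 1 and also classed as excitatory neurons (ENs), and they were 53.8% of all ENs. A further 13 cells of that cluster classed as radial glial cells and 1 classed as an IPC were left out. The cells came from C57BL/6 embryos at embryonic day 13.5 that had been electroporated in utero with a plasmid in which the ubiquitous CAG promoter drives the red protein mRFP and the Hes5 promoter, a target of Notch signalling, drives GFP. Single cells were sorted by fluorescence, and their RNA was read over its full length by a variant of Smart-seq2, in which reads carry no molecular barcode. Cells with both colours form the Hes5_GFP group and cells with mRFP without GFP form the CAG_mRFP group, so every cell studied carried the plasmid and had mRFP at sorting. Of the cluster 2 ENs, 27 were Hes5_GFP cells (17.4%) and the rest were CAG_mRFP cells. They were set beside the ENs of cluster 5 (41 and 57 cells on the same days, 8 of all its cells being Hes5_GFP cells) and the 67 intermediate progenitor cells (IPCs) of cluster 6 (26 and 29 cells on those days, 44 Hes5_GFP and 23 CAG_mRFP cells in all).

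In the developing cortex, radial glia divide at the ventricle and give rise to IPCs, which leave the ventricle, switch on the T-box factor Eomes and divide to make neurons. The newborn excitatory neurons stop dividing, turn on a series of NeuroD factors, move through the intermediate zone along radial glial fibres and then enter the cortical plate, where they extend axons and take on a layer identity. The 6 markers used here encode proteins of several kinds. Cbln2 encodes a secreted cerebellin that acts at synapses. Cxcl12 encodes a chemokine that guides migrating cells bearing the receptor CXCR4, and St18 encodes a zinc finger factor of the Myt1 family. Sema3c encodes a secreted semaphorin, Slc17a6 the vesicular glutamate transporter VGLUT2, and Neurod1 a basic helix-loop-helix factor of neuronal differentiation.

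The cell table names no embryo, and how many embryos were pooled for a sort is not known here. Counts were therefore summed per cluster and sort day and given as CPM, the usual scaling of a count to the total of its sum. At least 10 cells of each of the 3 clusters were present on 2 sort days, called day A and day B. Cluster 2 had its 70 cells on day A and 80 on day B, and its other 5 cells entered pooled values only. Each of these days held 2 preparation dates in the cell table, which does not say what was prepared. Sort day and preparation date give 4 strata (A1, A2, B1 and B2) as a further view of the spread. Cluster 2 ENs had a median of 219240 counts per cell (range 841 to 999243) and 2554 genes, against 295657 counts and 2731 genes in cluster 5 ENs and 267798 counts and 3114 genes in cluster 6 IPCs. Stratum A1 was shallow, with a median of 52752.5 counts in cluster 2, and 24 cluster 2 cells had fewer than 50000 counts. After each cell was thinned to 50000 counts, the median number of genes was 2415 in cluster 2 (24 shallower cells left out), 2498 in 100 cluster 5 cells (15 left out) and 2888 in 58 cluster 6 cells (9 left out). The median mitochondrial share was 1.68% in cluster 2.

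The cells were selected by their class as excitatory neurons, so the transcripts below describe that label and do not test it. Neurod6, a NeuroD factor of cortical excitatory neurons, had reads in 100% of the cells, Tubb3, a neuronal tubulin, in 97.4%, and Slc17a6 in 81.9%. In cluster 5 ENs these shares were 99.1%, 100% and 59.1%, and in cluster 6 IPCs 68.7%, 88.1% and 8.96%. Of the GABAergic interneuron genes Gad1, Gad2, Dlx1, Dlx2, Dlx5 and Dlx6os1, all 6 were at 0 in cluster 2. On days A and B they also summed to 0 CPM in cluster 5, and to 2.05 and 0 CPM in IPCs. The authors' phase calls put 97.4% of the cells in G1 (95% exact binomial interval 93.5 to 99.3%), with 2 cells in S and 2 in G2M. In cluster 5, 98.3% of ENs were called G1, and in cluster 6, 46 of 67 IPCs were (16 in S and 5 in G2M). Reads of at least 3 of the 6 markers were found in 88.4% of the cells, of all 6 in 16 cells, and no cell lacked all of them.

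The clusters were drawn by the authors from the expression of these same genes. Differences between clusters are therefore given as a description, with their spread over days and strata, and without a test. For each gene the ratio between clusters was taken within each day, as log2 of (CPM + 1) over (CPM + 1), and averaged. A gene was called higher or lower when this mean was at least 1 in size, with one sign on both days, among genes that reached 20 CPM in either cluster.

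The 6 markers separated cluster 2 ENs most clearly from IPCs, and 3 of the 6 were also called higher than in the other neurons. Cxcl12 set the cluster apart most. Its level in cluster 2 was 502.1, 440.3, 449.8 and 671.6 CPM in strata A1, A2, B1 and B2. In cluster 5 it was 10.4, 23.6, 38.1 and 147.5 CPM, so the lowest stratum of cluster 2 lay above the highest of cluster 5, and the log2 ratio was 3.48 ± 1.43 (SD, n = 2 days). Cluster 6 IPCs held 2 Cxcl12 counts over both days, which puts cluster 2 higher by 3476-fold, with a 95% exact interval of 962 to 28708 that covers the counting of reads only. Of thinned cluster 2 cells of all sort days, 67.9% had a Cxcl12 read, against 18% in cluster 5 and 6.9% in cluster 6. A Cxcl12 read was found in 6 of all 67 IPCs before thinning, most of them from sort days other than A and B. The fold value therefore holds for the IPCs of days A and B only.

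St18 and Sema3c followed the same order. St18 stood at 872.5, 250.7, 213.6 and 337.1 CPM in the 4 strata of cluster 2 and at 57.1, 99.3, 102.8 and 52.2 CPM in cluster 5 (log2 ratio 2.10 ± 0.18, SD, n = 2 days). Stratum A1 was far above the other 3 in cluster 2, and even without it the groups did not overlap. Sema3c was measured at 219.6, 329.5, 257.8 and 460.5 CPM in cluster 2 and at 163.8, 176.7, 71.2 and 189.2 CPM in cluster 5 (log2 ratio 1.10 ± 0.42). No Sema3c count was found in cluster 6 IPCs on either day, and against a floor of 3 counts over both days cluster 2 was at least 1518-fold higher. These 3 genes were the markers whose strata were both apart and past the size of the call, in a comparison where 10.2% of 7266 genes were called higher in cluster 2 than in cluster 5.

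The namesake gene Cbln2 was not called against cluster 5. Cluster 2 held 794, 712.4, 415.5 and 464.5 CPM of Cbln2 in the 4 strata, and cluster 5 held 110.7, 424.4, 231.5 and 294.6 CPM. The ratio within each stratum was above 0 in 4 of 4, but the strata overlapped across days, and the log2 ratio of 0.95 ± 0.33 (SD, n = 2 days) fell short of the call. Slc17a6 behaved alike, with 1285, 775, 459.01 and 617.4 CPM in cluster 2 against 200.6, 604.2, 239.5 and 320.6 CPM in cluster 5 (log2 ratio 0.93 ± 0.0043). With each cell weighted equally, the ratios of Cbln2 and Slc17a6 were 1.29 and 1.25. Neurod1 was 745 and 782 CPM on days A and B in cluster 2 and 501.8 and 425.6 CPM in cluster 5 (log2 ratio 0.72 ± 0.22). A Cbln2 read was present in 61.1% of thinned cluster 2 cells and in 48% of thinned cluster 5 cells, with 95% exact intervals of 52.2 to 69.5% and 37.9 to 58.2%. In IPCs of cluster 6, Cbln2 stood at 0 and 8.87 CPM, Slc17a6 at 22.7 and 29.5 CPM and Neurod1 at 10.1 and 58.04 CPM.

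**Figure D1:**
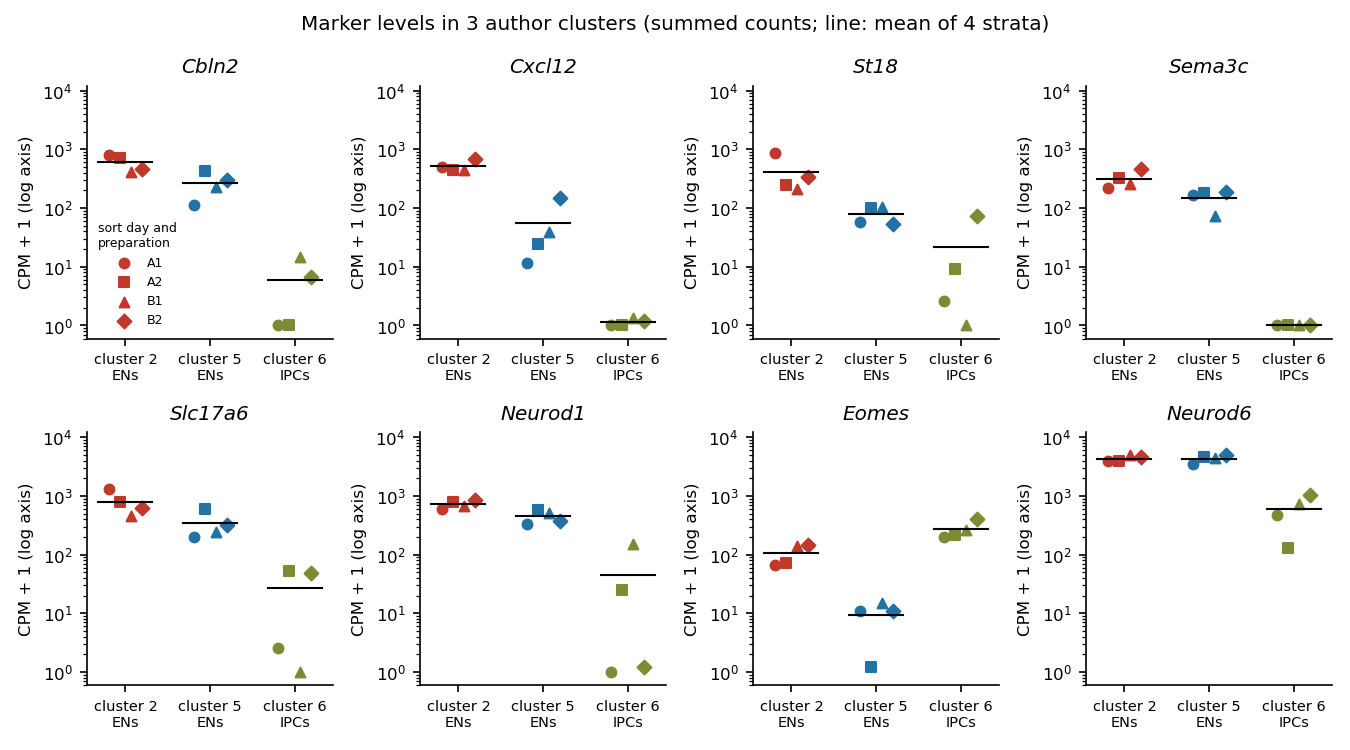
Levels of the 6 markers, of Eomes and of Neurod6 in the 3 author clusters, as summed CPM + 1 on a log axis. Each point is 1 of the 4 strata of sort day and preparation date, and the line is their mean. Cxcl12, St18 and Sema3c in cluster 2 ENs lie above all strata of cluster 5 ENs, Neurod6 lies at the same height in both neuron clusters, and Eomes in cluster 2 ENs lies between the other clusters.

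Single cells of the cluster varied widely in the markers. Cxcl12 ranged from 0 to 4756 CPM per cell with a median of 403.1 CPM, and Cbln2 from 0 to 3903 CPM with a median of 221.9 CPM. The medians of St18 and Sema3c were 0 CPM, since fewer than 50% of cells (47.7% and 49.7%) had a read of either. Neurod6 was the steady one, with a quarter-to-quarter range of 3213 to 5345 CPM around a median of 4258 CPM and no cell at 0.

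The promoter letters of the markers are shown because NeuroD factors bind E-boxes, and reads of Neurod1 and Neurod6 were present in 89.7% and all of the cells. The E-box letters CAGATG, whose other strand reads CATCTG, and the letters CAGCTG, which read the same on either strand, were searched on both strands in the 250 bases before the start. The RefSeq promoter table (GRCm38.p6) held 5 promoters of 4 of the 6 markers, and 2 of the 5 (40%) had a match, against 25.5% of all 32851 promoters in it. Of the 15 genes highest in cluster 2 against both other clusters, 9 were in the table, and 3 of their 14 promoters (21.4%) had a match. Sema3c had CAGATG 200 bases before its start and Cxcl12, the gene with the largest ratio against IPCs, had no match in its window. Both sequences run 5′ to 3′ on the plus strand, chr5:17574566-17574815 for Sema3c and chr6:117168285-117168534 for Cxcl12, with the match in capitals.
Sema3c: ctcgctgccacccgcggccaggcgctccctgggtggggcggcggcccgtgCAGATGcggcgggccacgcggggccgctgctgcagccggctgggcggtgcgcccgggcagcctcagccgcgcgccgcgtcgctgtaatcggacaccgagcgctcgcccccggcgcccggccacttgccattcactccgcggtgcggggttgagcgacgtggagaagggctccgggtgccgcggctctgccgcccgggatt
Cxcl12: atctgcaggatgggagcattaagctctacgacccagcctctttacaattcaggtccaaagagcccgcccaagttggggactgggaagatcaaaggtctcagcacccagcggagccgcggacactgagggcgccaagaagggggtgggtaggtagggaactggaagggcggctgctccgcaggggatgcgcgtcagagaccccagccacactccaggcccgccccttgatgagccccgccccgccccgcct
A match is a description of the letters and not evidence of binding.

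The first comparison asked how cluster 2 ENs differed from IPCs, the dividing cells from which cortical excitatory neurons arise. Genes of neuronal differentiation, the neuronal cytoskeleton and axon guidance were higher in cluster 2, and genes of DNA replication were lower. Of 7688 genes compared, 1408 (18.3%) were called higher in cluster 2 and 1388 (18.1%) lower. The gate differed between these clusters, and with CAG_mRFP cells alone the split of the calls moved from 50.4% to 62.8% higher while the median of all genes moved from -0.01 to 0.32 on the log2 scale (at least 5 cells per day, an alternative chosen after the data were seen).

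Most neuronal differentiation factors were higher. Of 14 members past the level filter, 11 were called higher in cluster 2 than in IPCs and 1 lower. Neurod6 reached 3851 and 4734 CPM on days A and B in cluster 2 and 324.8 and 913 CPM in IPCs (log2 ratio 2.97 ± 0.84, SD, n = 2 days). Sox11, an SRY-box factor of immature neurons, was at 22794 and 20733 CPM against 5133 and 5650 CPM (log2 ratio 2.01 ± 0.19). Tbr1, a T-box factor of postmitotic neurons that follows Eomes, was at 101.95 and 94.04 CPM, whereas IPCs held 3 of its counts over both days. Myt1l, a zinc finger factor of neurons, was at 107.7 and 50.8 CPM in cluster 2 and at 0 in IPCs. The 1 member called lower was Neurod4, a proneural factor, at 10.9 and 6.76 CPM in cluster 2 against 46.2 and 352.6 CPM in IPCs.

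The cytoskeleton of the growing neuron showed the same direction. Of 15 cytoskeletal genes past the filter, 13 were called higher in cluster 2 than in IPCs and none lower, with a list median of 2.47 on the log2 scale beside -0.01 over all genes compared. Dcx, the microtubule protein doublecortin of migrating neurons, was at 891 and 869 CPM against 33.7 and 110.9 CPM in IPCs. Map2, a microtubule protein of dendrites, was at 938 and 697.4 CPM against 106.8 and 62.1 CPM. Tubb3 was at 1579 and 1227 CPM against 377.4 and 671.5 CPM.

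Axon guidance genes were also mostly higher, with 15 of 18 called higher and 1 lower. Robo2, a Slit receptor, was at 665.3 and 525.8 CPM in cluster 2 and at 54.6 and 25.8 CPM in IPCs (log2 ratio 3.94 ± 0.50, SD, n = 2 days). Dcc, a netrin receptor, was at 465.1 and 226.5 CPM against 29.5 and 40.96 CPM. L1cam, an adhesion molecule of axons, was at 232.8 and 155.1 CPM against 0 counts, at least 802-fold higher. The member called lower was Slit1, a secreted guidance cue, at 0.69 and 0.25 CPM against 16.2 and 33 CPM. Sema6d, a membrane semaphorin, was higher by 1.84 over both gates and lower, at -0.40, among CAG_mRFP cells of day A.

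The 12 genes highest in cluster 2 against IPCs by the naming rule had log2 ratios of 6.31 to 8.84. Besides the markers Cxcl12, Sema3c and Cbln2, and besides L1cam and Tbr1, they were Fam49a, Negr1, Gpm6a, Cers6, Pak7, Ap3b2 and Nhlh2. Gpm6a, a neuronal membrane glycoprotein of growth cones, was at 1311 and 1110.4 CPM in cluster 2 and at 0.75 and 47.2 CPM in IPCs. Negr1, an adhesion molecule of the IgLON family, was at 302.1 and 249.2 CPM against 0.75 and 0.26 CPM. Nhlh2, a helix-loop-helix factor, was at 83.96 and 82.9 CPM and had 1 count in IPCs over both days, a ratio of 1086-fold with an exact interval for read counting of 194.7 to 42888. Most of these 12 genes were therefore all but absent from the IPCs of days A and B and spread over between 26.5% and 87.7% of the cluster 2 cells.

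**Figure D2:**
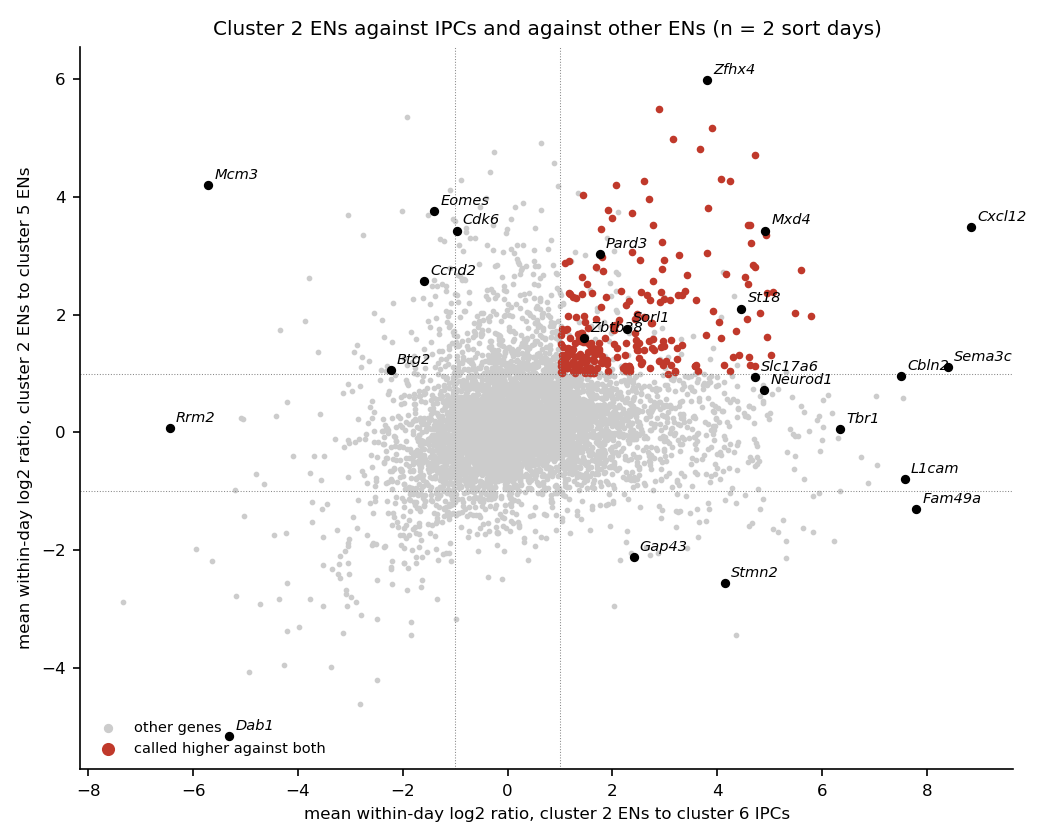
Mean within-day log2 ratio of cluster 2 ENs to cluster 6 IPCs (x axis) and to cluster 5 ENs (y axis) for genes that passed the level filter in both comparisons, with n = 2 sort days. Red points are the 3.59% of 6917 genes called higher against both clusters, dotted lines mark ratios of -1 and 1, and named genes are black. Cxcl12 lies at the upper right, Eomes and Cdk6 lie above 0 only against cluster 5 ENs, and Stmn2 lies below 0 only against cluster 5 ENs.

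Replication genes were lower in cluster 2 than in IPCs in their summed level, though single cells still held their reads. All 14 genes of the S phase list passed the filter and all 14 were called lower in cluster 2 than in IPCs, with a list median of -4.59 beside -0.01 over all genes compared. Rrm2, a subunit of ribonucleotide reductase, was at 40.2 and 25.7 CPM in cluster 2 and at 2444 and 3404 CPM in IPCs (log2 ratio -6.44 ± 0.78, SD, n = 2 days). Mcm7, of the replicative helicase, had a read in 56.1% of cluster 2 cells and Rrm1, the other reductase subunit, in 46.5%, with up to 1483 and 2283 CPM in 1 cell. Pcna, the replication clamp, was at 58.4 and 87.3 CPM against 1096 and 1387 CPM. Cdc6, a licensing factor of replication origins, had 3 counts in cluster 2 and 5672 in IPCs over both days. Cdc6 also led the 12 genes lowest against IPCs, followed by Exo1, Fignl1, Mcm10, Cdt1, Mcm5, Tspan18, Shmt1, Uhrf1, Tk1, Asf1b and Lpar1. Their log2 ratios ran from -8.57 to -6.85. Most of the 12 serve DNA replication, repair or nucleotide supply, and Tspan18, a tetraspanin, and Lpar1, a lysophosphatidic acid receptor, do not.

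The G2 and mitosis genes were less uniform. Of 11 past the filter, 9 were called lower in cluster 2 than in IPCs and 1, Ube2c, higher, but among CAG_mRFP cells of day A, the day with 10 such IPCs, the ratio of Mki67 turned to 1.12, Ccnb1 to 0.33, Ccna2 to 0.29, Aurkb to 3.08 (and to 1.004 with G1 cells alone), Plk1 to 2.35 and Ube2c to -0.41. Top2a, the topoisomerase of dividing cells, was at 21.6 and 9.05 CPM against 315.7 and 553.96 CPM (log2 ratio -4.80 ± 1.40, SD, n = 2 days). Hmgb2, a chromatin protein of cycling cells, was at 94.4 and 104.7 CPM against 437.1 and 574.04 CPM. In the list of cell cycle exit and G1, 1 gene was called higher and 4 lower of 9. Cdkn1c, an inhibitor of cyclin-dependent kinases, was higher (25.9 and 38.7 CPM against 2.05 and 13.3 CPM), and Ccnd1, a G1 cyclin, was lower (26.6 and 12.7 CPM against 379.1 and 374.4 CPM). Cdkn1a, another such inhibitor, was lower over both gates (-2.59) and higher among CAG_mRFP cells of day A (2.86).

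Progenitor genes were low in cluster 2 but not absent. Of 10 radial glial genes past the filter, none was called higher than in IPCs and 7 were called lower, and the list summed to 399.1 and 256.9 CPM in cluster 2 against 1699 and 1214 CPM in IPCs. Mfge8 and Tnc were at 0 in all cluster 2 cells. Slc1a3, a glial glutamate transporter, was at 0.14 and 0.13 CPM against 138.3 and 67.6 CPM, and Pax6, a homeodomain factor of progenitors, was at 68.9 and 32.7 CPM against 307.1 and 73.04 CPM. A Pax6 read was present in 32.1% of thinned cluster 2 cells and in 16% of thinned cluster 5 cells.

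Of the 10 IPC genes, 6 were called lower in cluster 2 than in IPCs and 2 higher, Sstr2 and Dll3. Eomes, the defining factor of IPCs, was at 64.6, 70.6, 137.6 and 146.5 CPM in the 4 strata of cluster 2, at 195.9, 213.9, 257.5 and 399.04 CPM in IPCs and at 9.94, 0.21, 13.9 and 9.84 CPM in cluster 5. The 3 clusters did not overlap, with cluster 2 in the middle: its log2 ratio was -1.40 ± 0.20 to IPCs and 3.76 ± 0.33 to cluster 5 (SD, n = 2 days). Eomes reads were found in 41.98% of thinned cluster 2 cells, 68.97% of IPCs and 8% of cluster 5 ENs. Btg2, an antiproliferative gene of neurogenic divisions, had the same order over days, with 156.96 and 109.55 CPM in cluster 2, 582.5 and 660.1 CPM in IPCs and 46.9 and 83.5 CPM in cluster 5, but its strata overlapped between the neuron clusters, and in stratum B1 cluster 2 lay below cluster 5 (113.9 against 118.9 CPM). Neurog1, a proneural factor, did not follow it: it was at 1.72 and 0 CPM in cluster 2 and at 57.8 and 48.9 CPM in IPCs, with no count in cluster 5. Sstr2, a somatostatin receptor, was at 1180 and 1273 CPM in cluster 2 against 631.1 and 440.9 CPM in IPCs and 617.5 and 939 CPM in cluster 5, and was not called against cluster 5, where the strata overlapped. With each cell weighted equally its log2 ratio to IPCs was 0.88, below the call.

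The second comparison asked how cluster 2 differed from the other large group of ENs, cluster 5. Of the progenitor lists, IPC genes were partly called higher in cluster 2 and no radial glial gene was called, and 3 genes of the neuronal cytoskeleton were called lower. Of 7266 genes compared, 738 (10.2%) were called higher in cluster 2 and 7.1% lower. Among IPC genes, 4 of 7 past the filter were called higher in cluster 2 and none lower, with a list median of 1.05 beside 0.05 over all genes compared. The 4 were Eomes, Btg2, Mfng, a glycosyltransferase that modifies Notch, and Dll3, a Notch ligand that acts within the cell, whose ratio of 1.33 became 0.57 with each cell weighted equally.

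Among the 12 genes highest in cluster 2 against cluster 5 were Zfhx4, Fign, Rcn3, Kif26b, Eomes, Btbd17, Ncoa6, Palmd, Cxcl12, Cdk6 and Mxd4, and the log2 ratios of the 12 ran from 3.43 to 5.99. Cdk6, a kinase of the G1 phase, was at 218.4 and 204.3 CPM in cluster 2, at 9.92 and 34.5 CPM in cluster 5 and at 418.2 and 412.4 CPM in IPCs. Ccnd2, its cyclin partner, was at 1175 and 1180.0 CPM in cluster 2 and at 97.1 and 399.5 CPM in cluster 5 (log2 ratio 2.57 ± 1.43, SD, n = 2 days). Over days both genes lay between the IPCs and the other neurons in cluster 2. Ccnd2 was called lower than in IPCs (log2 ratio -1.60 ± 0.15), whereas Cdk6 was not (-0.97 ± 0.05) and its strata overlapped with those of IPCs. Btbd17 showed it as well, at 51.1 and 54.99 CPM in cluster 2, 0 and 14.97 CPM in cluster 5 and 98.8 and 198.7 CPM in IPCs.

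Within the replication list, 3 of 11 genes were called higher in cluster 2 than in cluster 5 and 1 lower. Mcm3, part of the replicative helicase, was at 45.2 and 8.20 CPM against 0.14 and 0.11 CPM, but it had a read in 7.74% of cluster 2 cells and stood at 0.28 CPM in stratum A1 and 59.8 CPM in A2. Rrm1 was at 286.5 and 253.1 CPM against 89.7 and 94.6 CPM. Mcm4, of the same helicase, went the other way, at 13.3 and 17.9 CPM against 56.3 and 95.7 CPM. Of the G2 and mitosis list, 4 of the 5 genes past the filter were called higher and 1 lower, beside 10.2% and 7.1% of all genes compared. Of the 4, Ccnb1, Aurka and Ube2c were sparse, with a read in 8.39%, 8.39% and 12.3% of cluster 2 cells. Hmgb2 (0.85) and Cdk1 (-0.49) fell short with each cell weighted equally. All 14 genes of that list summed to 230.9 and 267.3 CPM in cluster 2 and to 81.2 and 264.7 CPM in cluster 5. The sums of the 2 clusters were thus near each other on day B. Of cell cycle exit and G1, 3 of 7 were called higher and none lower. Among neuronal differentiation factors 1 of 13 was called higher, St18, and 1 lower, Myt1l, and none of the 4 radial glial genes past the filter was called.

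Among the 12 genes lowest in cluster 2 against cluster 5 were Pdzrn3, Nav2, Dixdc1, Tenm3, Stmn2, Pcdh18, Csdc2, Chl1, Gnl3, Wdr4 and Bach2, and the log2 ratios of the 12 ran from -4.93 to -2.22. Stmn2, a microtubule regulator of growth cones, was at 55.7 and 71.6 CPM against 488.7 and 287.9 CPM. Pdzrn3, a ubiquitin ligase with PDZ domains, had a read in 1 cell of cluster 2 and in 33.9% of cluster 5 cells.

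**Figure D3:**
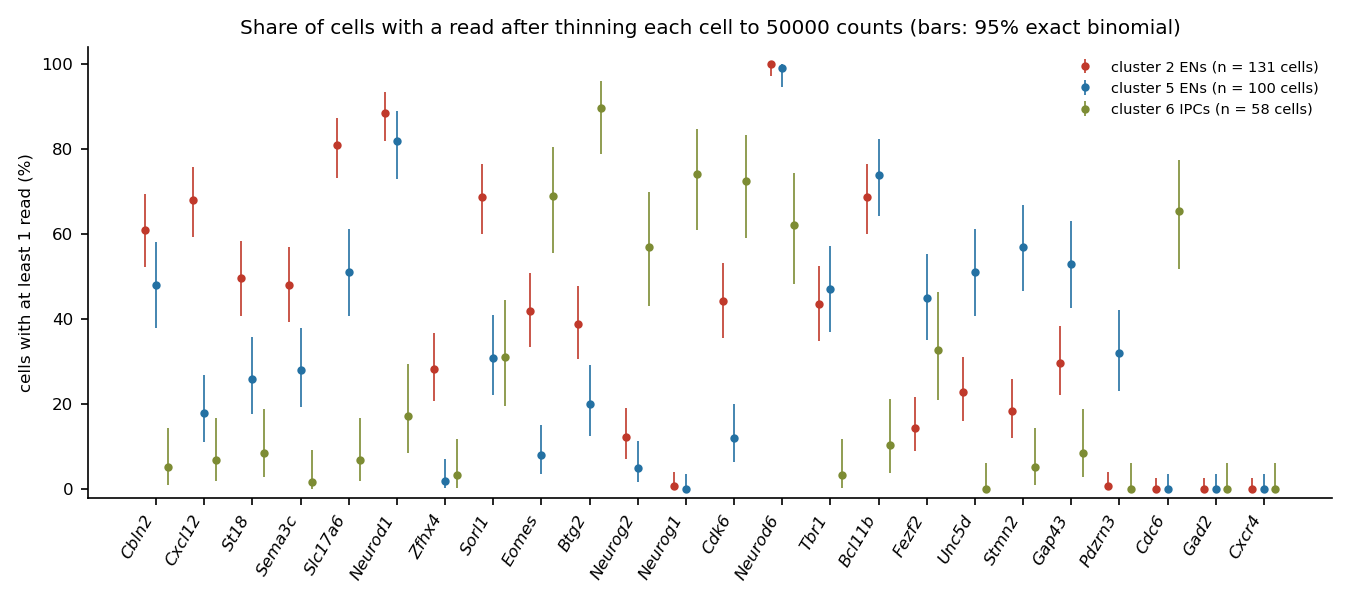
Share of cells with at least 1 read of each gene after every cell was thinned to 50000 counts, with 95% exact binomial intervals, in cluster 2 ENs (all but 24 shallower cells), 100 cluster 5 ENs and 58 cluster 6 IPCs. Cxcl12 (67.9%), Sorl1 (68.7%) and Zfhx4 (28.2%) stand higher in cluster 2 than in both others, Eomes (41.98%) and Cdk6 (44.3%) stand between them, and Stmn2 (18.3%) stands below cluster 5.

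Of 16 cytoskeletal genes, none was called higher in cluster 2 than in cluster 5 and 3 were called lower: Stmn2, Gap43, a growth cone protein, at 53.4 and 76.5 CPM against 390 and 200.9 CPM, and Ina, a neurofilament subunit, at 6.27 and 0.51 CPM against 91.1 and 16.6 CPM. Dcx (891 and 869 CPM against 798 and 799 CPM) and Map2 (938 and 697.4 CPM against 1042 and 529.4 CPM) were not called. The list summed to 24244 and 21549 CPM in cluster 2 and to 35005 and 30151 CPM in cluster 5.

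Among deep layer genes none of 6 was called higher and 2 were called lower. Fezf2, a zinc finger factor of subcerebral neurons, was at 33.4 and 28.9 CPM against 94.5 and 116.8 CPM, and Tle4, a corepressor of corticothalamic neurons, at 19.5 and 3.10 CPM against 28.6 and 35.2 CPM (log2 ratio -1.84, and -0.77 with each cell weighted equally). Bcl11b (CTIP2), a factor of deep layer neurons, was at 262.5 and 239.8 CPM against 381.2 and 242.5 CPM, and Tbr1 at 101.95 and 94.04 CPM against 116.5 and 76.1 CPM. Against IPCs, 3 of 5 deep layer genes were called higher, Bcl11b, Tbr1 and Foxp2, and none lower. Of the upper layer genes, 2 of 5 were called higher than in IPCs and none lower, and against cluster 5, 1 of 5 was called higher and 1 lower. Pou3f2, a POU factor, was at 273.1 and 181.75 CPM against 100.2 and 86.5 CPM.

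Genes of migration and of the reelin response were mixed. Against IPCs 7 of 12 were called higher and 3 lower, and against cluster 5 none was called higher and 3 lower. Dab1, the adaptor of reelin receptors, was at 0.34 and 0.64 CPM in cluster 2, against 45.9 and 58.9 CPM in cluster 5 and 87.1 and 38.6 CPM in IPCs. Vldlr, one of those receptors, was likewise low, at 2.41 and 0.25 CPM against 30.3 and 13.5 CPM in cluster 5. Unc5d, a netrin receptor of migrating cortical neurons, was at 32.7 and 107.3 CPM against 214.4 and 174.4 CPM in cluster 5, and at 0 and 0.13 CPM in IPCs. Rnd2, a small GTPase that promotes radial migration, was at 181.5 and 261.9 CPM against 341.8 and 368.9 CPM in cluster 5 and was not called.

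In axon guidance, 2 of 17 genes were called higher in cluster 2 than in cluster 5 and 3 lower. The share called higher was near the 10.2% of all genes compared, of which 7.1% were called lower. The 2 called higher were the marker Sema3c and another semaphorin, Sema3a, the latter at 99.1 and 178.01 CPM against 42.1 and 90.02 CPM. The 3 lower were Unc5d, Epha5, an ephrin receptor, at 358.9 and 272.7 CPM against 845 and 706.7 CPM, and Cntn2, an axonal adhesion molecule, at 45.9 and 49.2 CPM against 230 and 97.2 CPM. Nrp1, a co-receptor for semaphorins, was at 405.8 and 394.5 CPM against 528.8 and 668.2 CPM, and was not called.

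**Figure D4:**
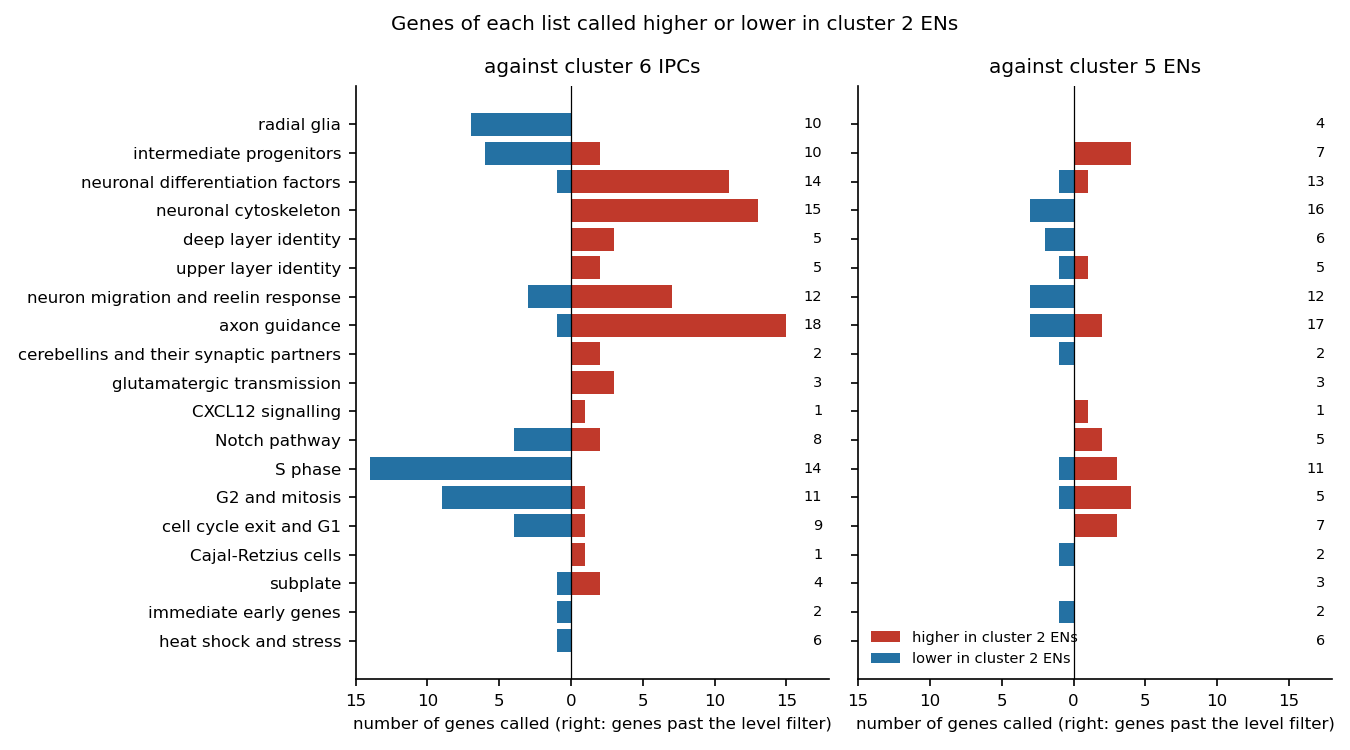
Number of genes of each list called higher (right, red) or lower (left, blue) in cluster 2 ENs than in cluster 6 IPCs and in cluster 5 ENs. The number at the right edge is how many genes of the list passed the level filter. Against IPCs, differentiation, cytoskeleton and axon guidance extend to the right and S phase to the left, and against cluster 5 ENs the IPC list extends to the right and the cytoskeleton list to the left.

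The relatives of Cbln2 and the receptors of CXCL12 were scarce. Of the other cerebellins measured, Cbln1 was at 0 in cluster 2 and Cbln3 at 3.10 and 0 CPM on days A and B, and Grid1, a receptor of the delta family, was at 0. Of the CXCL12 receptors, Cxcr4 had a read in none of the thinned cluster 2 cells, which at 3 cells for a count of 0 allows a share of cells with a read of up to 2.29% (95% exact upper bound 2.78%) and says nothing of lower levels, and Ackr3 was at 0 and 17.04 CPM. In the list of glutamatergic transmission, 3 genes passed the filter, all 3 were called higher in cluster 2 than in IPCs, and none was called against cluster 5. They were Slc17a6, Gria2, an AMPA receptor subunit, at 185.8 and 402.5 CPM against 41.6 and 41.5 CPM in IPCs, and Grik2, a kainate receptor subunit, at 73.9 and 70.9 CPM against 30.02 and 34.3 CPM.

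The Notch pathway bears on the reporter of the study, since the Hes5 promoter is a Notch target. Hes5 itself was at 2.76 and 2.34 CPM in cluster 2 and Hes1 at 0.14 and 0 CPM, and neither passed the filter against either cluster. Of 8 Notch genes compared with IPCs, 2 were called higher and 4 lower. Hey1, a target of the pathway in some cells, was at 130 and 79.2 CPM in cluster 2, at 143.8 and 151.8 CPM in cluster 5 and at 16.97 and 1.43 CPM in IPCs. Dll3 was at 202.9 and 82.6 CPM in cluster 2, 82.3 and 31.2 CPM in cluster 5 and 52.2 and 29.9 CPM in IPCs. The genes called lower than in IPCs were Notch1, Dll1, Numb and Numbl. Numb and Numbl were at -0.94 and -0.66 with each cell weighted equally, and Numb (0.96) and Numbl (0.997) turned above 0 among CAG_mRFP cells of days with at least 5 cells, an alternative chosen after the data were seen. Against cluster 5, 2 of 5 were called higher, Mfng and Dll3, and none lower.

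Highest in cluster 2 of the 3 clusters, by a call against both others, were 3.59% of 6917 genes. Of the 6 markers, Cxcl12, St18 and Sema3c were among them. The 15 ranked first by the smaller of their 2 ratios were Zfhx4, Fign, Cxcl12, Mxd4, Ncoa6, St18, Palmd, Rint1, Sorl1, Pard3, Nkain4, Wdfy1, Samd8, Tshz1 and Zbtb38. Zfhx4, a large homeodomain and zinc finger factor, was at 141.9 and 76.7 CPM in cluster 2, at 0 and 1.75 CPM in cluster 5 and at 4.10 and 10.04 CPM in IPCs. Sorl1, a sorting receptor of the VPS10 family, was the most even across days, at 405.1 and 427.8 CPM against 124.6 and 119.5 CPM in cluster 5 and 84.3 and 86.2 CPM in IPCs, with log2 ratios of 1.76 ± 0.10 and 2.27 ± 0.03 (SD, n = 2 days). Over the strata its ratios were less even, at 1.16 to 3.63 against cluster 5 and 1.29 to 5.22 against IPCs. Zbtb38, a zinc finger factor that binds methylated DNA, was at 850.1 and 533.9 CPM against 203.8 and 241.3 CPM and 328.5 and 181.3 CPM. Pard3, a polarity protein, was at 133.9 and 79.1 CPM against 8.50 and 16.03 CPM and 52.2 and 16.7 CPM. Other members rested on 1 day more than the other. Fign, a microtubule severing protein, was at 141.1 and 20.5 CPM in cluster 2, and Ncoa6, a nuclear receptor coactivator, was at 1.31 CPM in IPCs on day A and at 77.6 CPM on day B, so that its ratio to IPCs varied by 3.01 (SD) around 2.37. Rint1 (0 and 29.3 CPM) and Wdfy1 (3.92 and 59.2 CPM) were also uneven in IPCs. Thinned shares of cells with a read were near those of IPCs for Ncoa6 (22.1% in cluster 2 and 20.7%) and Rint1 (15.3% and 13.8%). For Samd8 the share was near that of cluster 5 (24.4% and 21%). With the strata as units, which asks for one sign in 4 of 4, 1.65% of 6911 genes were highest in cluster 2, and 84 of these were also called over the 2 days, 33.9% of the genes called there. With each cell weighted equally, 41.9% of the genes highest in cluster 2 were called so again, and of the 15 named, Nkain4 (0.13 to IPCs), Samd8 (0.95 to IPCs and 0.47 to cluster 5) and Wdfy1 (0.93 to cluster 5) fell short.

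The gate was the measure that had not been used to draw the clusters. Hes5_GFP cells made up 18.6% of cluster 2 on day A (13 of 70) and 16.3% on day B (13 of 80). In cluster 6 IPCs they made up 61.5% and 72.4%, and in cluster 5 ENs 12.2% and 3.51%. The share in cluster 2 thus differed by -43.0 and -56.2 percentage points from the IPCs and by 6.38 and 12.7 points from cluster 5. Neither difference can pass a test over 2 days, since the exact two-sided sign-flip permutation test gave p = 0.5, the smallest it allows, for both (mean differences -49.6 ± 9.33 and 9.56 ± 4.50 points, SD, n = 2 days). Over the 4 strata both kept their direction in 4 of 4, with p = 0.125, again the smallest the exact test allows. The difference to cluster 5 was 1.36 points in stratum A1, where 5 of 26 cluster 5 cells were Hes5_GFP cells, and 10.95 to 16.7 points in the other 3. Seen from the sort, cluster 2 supplied 3.96% and 4.05% of Hes5_GFP cells and 35.6% and 38.3% of CAG_mRFP cells on days A and B. Among ENs alone it supplied 59.1% and 61.9% of the Hes5_GFP cells and 59.4% and 52.8% of the CAG_mRFP cells.

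**Figure D5:**
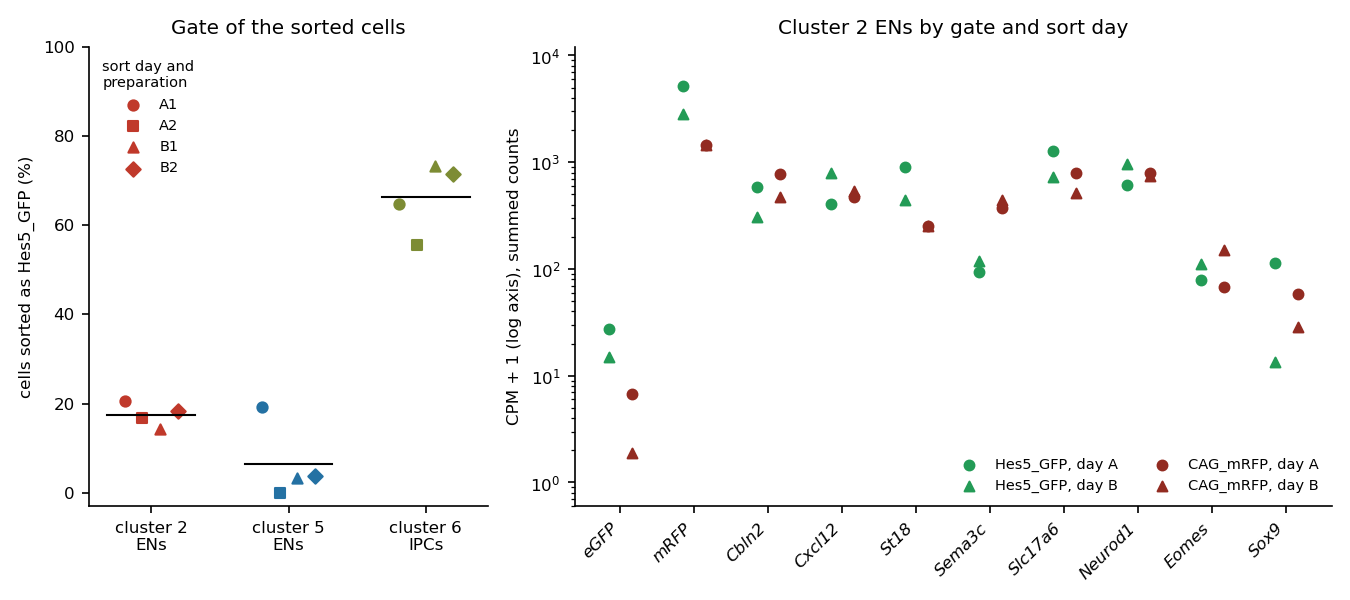
Left, share of cells sorted as Hes5_GFP in the 3 clusters, with 1 point per stratum of sort day and preparation date and the mean as a line. Right, levels in cluster 2 ENs by gate and sort day, as summed CPM + 1 on a log axis (13 Hes5_GFP cells on each day, 57 and 67 CAG_mRFP cells). The share in cluster 2 (14.3 to 20.6%) lies below that of every IPC stratum, and Sema3c is lower and St18 and mRFP are higher in Hes5_GFP cells on both days.

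Within cluster 2, the Hes5_GFP and CAG_mRFP cells were compared over days A and B with edgeR's quasi-likelihood test, with the day as a block. None of 9878 genes passed after Benjamini-Hochberg adjustment (0%), and 220 had an unadjusted p below 0.05. The same cells gave 6.23% of the genes with DESeq2 and 1 gene with limma, mRFP, so the count rests on the tool. With 2 days the edgeR fit had 1 residual degree of freedom. No label gives a plate, and the prefix of the cell names was taken as one. On these days each such plate held cluster 2 cells of 1 gate, so that gate and plate cannot be told apart.

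Both reporter transcripts were higher in Hes5_GFP cells on both days, which edgeR called for neither. GFP transcripts (eGFP) were at 26.4 and 13.9 CPM in Hes5_GFP cells and at 5.81 and 0.885 CPM in CAG_mRFP cells, with a read in 25.9% and 10.2% of those cells, and the log2 ratio of eGFP was no larger than its error (3.06 ± 3.14, SE, adjusted p = 1 in edgeR, 0.855 in limma and 0.221 in DESeq2). The mRFP transcript, whose protein both gates carried, was at 5134 and 2823 CPM in Hes5_GFP cells and at 1463 and 1447 CPM in CAG_mRFP cells (log2 ratio 1.39 ± 0.30, SE, adjusted p = 1 in edgeR, 0.0269 in limma and 4.52e-06 in DESeq2). Endogenous Hes5 was read in 1 of 27 Hes5_GFP and 7 CAG_mRFP cells (5.47%), and Hes1 in 0 and 1. Sox9, a factor of progenitors, was at 112.2 and 12.5 CPM against 57.2 and 27.5 CPM and had no one direction (log2 ratio -0.08 ± 1.18).

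Among the markers, Sema3c was lower in the Hes5_GFP cells on both days, at 92.1 and 118.05 CPM against 368.9 and 436.96 CPM, a log2 ratio of -1.94 ± 0.38 (SE) with an adjusted p of 1 in edgeR and of 5.65e-10 in DESeq2. St18 was higher, at 893 and 444.9 CPM against 249.2 and 251.6 CPM (log2 ratio 1.33 ± 0.37, adjusted p = 1 in edgeR and 0.0016 in DESeq2). Reads of St18 were present in 21 of 27 Hes5_GFP cells and in 41.4% of CAG_mRFP cells. For Sema3c the shares lay closer, at 12 of 27 Hes5_GFP cells and 50.8% of CAG_mRFP cells, and had no one direction over days. Sema3c was read in 4 of 13 against 28 of 57 cells on day A and in 8 of 13 against 35 of 67 on day B. Slc17a6 was at 1261 and 724.8 CPM against 787 and 514.7 CPM (log2 ratio 0.59 ± 0.27, adjusted p = 1 in edgeR and 0.0112 in DESeq2). Cbln2, Cxcl12 and Neurod1 passed with neither tool, and their log2 ratios were -0.52 ± 0.30, 0.17 ± 0.33 and -0.0046 ± 0.31. The IPC factor Eomes was at 78.6 and 111.1 CPM in Hes5_GFP cells and at 66.1 and 150.01 CPM in CAG_mRFP cells, and its log2 ratio of -0.09 ± 0.63 was smaller than its error. No gene of any list was called by edgeR, and the IPC list had a median log2 ratio of -0.36 beside -0.33 over all genes tested.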

How the data were processed

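The deposited table holds estimated counts, rounded to whole numbers, per gene and cell for 16839 genes and 1115 cells, used as deposited. The authors' second table holds natural log values that, as the values show, rest on each cell scaled to 10000. Counts calculated back from it were not whole (tolerance 0.01) in 2.99525% of its nonzero entries with a count below 5, which shows the rounding. The authors' cell table gives the mitochondrial fraction, cluster (resolution 1, per the file headers), class and phase of each cell. HISAT2, Seurat 2 and the mm10 build are named per the submitters' processing notes. The counting tool and annotation were not given in the sources used here. No 2 cells held identical values, and how doublets were treated was not given and no doublet caller was run.

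Counts were summed per cluster and sort day and divided by the total count to give CPM. Ratios carry a prior of 1 CPM. Without molecular identifiers, reads are not independent molecules, so intervals cover counting error only. The gate was tested in cluster 2 with edgeR 4.0.16 (glmQLFit, day as block, at least 5 CPM), with DESeq2 1.42.0 and limma 3.58.1 (on log2 of CPM + 1) as alternatives, in R 4.3.3. Tested on simulated data of the same design, edgeR called few of the changed genes, so that its count of 0 does not show that genes did not differ. The simulation gave all genes the same dispersion, which was not fitted to these data. Its outcome with DESeq2 is not reported here, so it does not say how many DESeq2 calls are false. Gate shares were compared with an exact two-sided sign-flip permutation test over days. P-values measure the spread between these sort days only, which may be technical.

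Named genes were the 6 markers, the 12 highest and 12 lowest genes against each cluster and the 15 highest against both, with a read in at least 20% of cells of the higher cluster, leaving out mitochondrial, ribosomal and unnamed gene models, and members of 21 gene lists as examples. The members and lists were chosen with earlier results of these data known. Alternatives covered cell weighting, prior, library size, TMM scaling, gate, depth, gene filter, cells per day, phase and leaving out a day. A few genes of the named sets are not reported here.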

Additional observations from a re-analysis of the deposited data

Results flagged for a closer look

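In 2 of 17 groups of 4 strata, 1 stratum of the cluster 6 IPCs stood apart from the other 3 (chance gives about 1 group in 20). St18 was at 72.8 CPM in stratum B2 of the IPCs, where the others held 0 to 8.07 CPM. Neurod1 was at 148.8 CPM in stratum B1 of the IPCs, where the others held 0 to 24.2 CPM. Both levels lie below those of every stratum of cluster 2 ENs.

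Neuronal transcripts were also found in the 13 cells of author cluster 2 that were classed as radial glial cells and entered no comparison. Their summed Neurod6 level was 5985 CPM, with reads in 11 of 13 cells, against 30.3 CPM in all other cells of that class. Tubb3 was at 1448 CPM in them, against 64.05 CPM. No read of Sox2, Pax6, Hes1 or Hes5 was found in any of the 13. Of the other radial glial genes looked up, Fabp7 was at 1171 CPM with reads in 5 of the 13 cells (1231 CPM in the other cells of the class), Vim at 105.1 CPM in 3 cells (724.6 CPM) and Sox9 at 5.39 CPM in 1 cell (625.2 CPM). All 13 were CAG_mRFP cells of day A, with a median of 15314 counts and 1206 genes.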

How the results depend on the processing

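Counts are given as the percent of genes compared. Against IPCs, 18.3% of genes were called higher in cluster 2, 33.3% with CAG_mRFP cells only (1 day), 20.9% of 10311 with a gene filter of 5 CPM and 21.5% to 23.3% with 1 day left out. Called lower were 18.1%, and 11.7% with the strata as the unit. Against cluster 5, the 10.2% called higher became 13.2% of 10022 (filter of 5 CPM), 6.23% (strata) and 14.02% to 18.3% (1 day left out). The 7.1% lower became 8.73%, 3.86% and 10.9% to 14.4% in the same order. The 3.59% highest against both became 4.99% of 9595, 1.65% and 6.45% to 7.84%. With each cell weighted equally, 73.5% of the genes called higher and 73.8% of those called lower than in IPCs were called again, 54.5% and 50% against cluster 5, and 41.9% of those highest against both. Where 1 day is left out, a sign needs to hold on 1 day only. The strata were chosen as a unit after the data were seen.

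Called ratios of named or listed genes to IPCs changed sign in 15 cases. With CAG_mRFP cells only they were 0.22 for Tenm3, 0.28 for Wdr4, -0.40 for Sema6d, 1.12 for Mki67, 0.33 for Ccnb1, 0.29 for Ccna2, 3.08 for Aurkb, 2.35 for Plk1, -0.41 for Ube2c and 2.86 for Cdkn1a. With at least 5 CAG_mRFP cells per day, chosen after the data were seen, they were 0.30 for Tenm3, 0.96 for Numb, 0.997 for Numbl and 0.53 for Ccnb1, and with G1 cells only 1.004 for Aurkb. The cause was not tested. Against cluster 5 no called ratio of a named or listed gene changed sign under any alternative run.

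Gate shares differed by -56.2 to -42.97 points from IPCs and by 6.38 to 12.7 points from cluster 5 with 1 day left out. Between gates within cluster 2, DESeq2 called 6.23% of genes and limma 0.0101% (1 gene), against 0 with edgeR. Without the day as a replicate block edgeR called 0 genes. Leaving out a day was not run there, since no residual degrees of freedom remain. Depth limits low genes: 24 cluster 2 cells held fewer than 50000 counts.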

Other observations

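Measured markers of endothelium, erythroid cells, meninges and GABAergic interneurons were nearly absent from cluster 2 ENs. Some genes of the Cajal-Retzius and subplate lists were read in many of the cells. Of the 6 measured genes of endothelium, erythroid cells and meninges, none passed the level filter, Cldn5 and Pecam1 were at 0, and the sum was 1.59 and 13.8 CPM on days A and B. The microglial genes of the list, Cx3cr1 and Aif1, were not analysed here. The GABAergic list had no gene past the filter. Reln, the secreted signal of Cajal-Retzius cells, had a read in 2 cluster 2 cells and stood at 0 and 0.042 CPM, against 85.02 and 13.2 CPM in cluster 5, where it was the 1 gene of 2 in that list called (lower in cluster 2). Nhlh2, also in that list, was its 1 gene called higher than in IPCs and had a read in 26.5% of cluster 2 cells.

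Of the subplate genes, 2 of 4 were called higher than in IPCs, Nr4a2 and Nxph4, and 1 lower, Lpar1. Nxph4 had a read in 27.1% of cluster 2 cells, Tmem178 in 40.6%, Nr4a2 in 8.39% and Lpar1 in 1.94%. None of 3 was called against cluster 5. Among immediate early genes Jun was called lower against both clusters (46.4 and 18.4 CPM against 102.6 and 37.95 CPM in cluster 5 and 166.7 and 31.8 CPM in IPCs, but short of the call with each cell weighted equally, at -0.28 and -0.73), 1 of 2 past the filter in each comparison. Of 6 heat shock and stress genes, Hsph1 alone was called lower than in IPCs, and none was called against cluster 5. The list of CXCL12 signalling had Cxcl12 as its 1 gene past the filter, called higher against both.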
